A study of Mus musculus with 23 samples.

Results

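Heat shock proteins and molecular chaperones were followed in 23 single mouse cells, to describe how strongly stress genes were expressed in cells that had been transfected with RNA. The members were 10 named genes, and every probe set annotated to one of them was used. They were Hspa1a, Hspa1b, Hspa5, Hspa8, Hsp90aa1, Hsp90ab1, Hspb1, Hspd1, Hspe1 and Dnajb1. Of these, 9 had at least 1 listed probe set, 23 probe sets in all, among 18193 genes with a probe set of their own symbol. Hsp90ab1 was not analysed here.

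Each sample was 1 cell on 1 Affymetrix mouse array. The 5 fibroTIPeR cells were fibroblasts into which cardiomyocyte poly-A RNA was brought by a lipid reagent, in the procedure called transcriptome-induced phenotype remodeling. The 3 fibroControl cells were fibroblasts that received fibroblast poly-A RNA with the same kind of reagent. The 4 cardiomyocytes and the 3 fibroblasts were not transfected. The 6 astroTIPeR cells were astrocytes given cardiomyocyte RNA, and the 2 astroControl cells were mock-transfected astrocytes. No astrocyte without transfection was analysed here, so the astrocyte comparison does not show the effect of transfection itself, and in fibroblasts the RNA and the reagent cannot be told apart. All cells were cultured in DMEM with serum, taken up singly with a glass micropipette, and their RNA was amplified as antisense RNA before labelling with biotin. For strain, age, sex and the time from transfection to collection the labels were silent. Separate cultures or animals are not named in the labels; every p-value here therefore reflects the spread between single cells alone, and the small number of arrays limits the precision.

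Chaperones bind unfolded proteins and help them to fold or to be degraded. When unfolded proteins build up in the cytosol, heat shock factor 1 (HSF1) forms trimers, binds heat shock elements in the promoters of chaperone genes and raises their transcription. Heat shock elements are built from inverted repeats of the triplet GAA. The inducible HSP70 genes Hspa1a and Hspa1b are the classical targets and are low in most unstressed cells, whereas Hspa8 and Hsp90ab1 encode constitutive forms. The endoplasmic reticulum has its own response to unfolded proteins, in which the HSP70 of that compartment, Hspa5 (BiP), is induced through a different element.

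Promoter windows from RefSeq (build GRCm38.p6) were searched for these elements, because the stress pathways named above act through different ones. Windows ran from 250 bases before to 50 bases after a gene's start, and 7 members had 9 windows. The sequences of 4 members follow, with matches to a heat shock element dyad or to the endoplasmic reticulum stress element in capitals. They show the inducible pair, the mitochondrial cochaperonin and the endoplasmic reticulum member.
Hspa1a, chr17:34972107-34972406, minus strand: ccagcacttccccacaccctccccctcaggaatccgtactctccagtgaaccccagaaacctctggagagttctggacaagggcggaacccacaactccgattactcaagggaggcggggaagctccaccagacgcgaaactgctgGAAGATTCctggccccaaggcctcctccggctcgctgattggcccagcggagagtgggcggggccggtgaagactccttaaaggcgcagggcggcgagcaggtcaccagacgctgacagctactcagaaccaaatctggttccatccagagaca
Hspa1b, chr17:34959189-34959488, minus strand: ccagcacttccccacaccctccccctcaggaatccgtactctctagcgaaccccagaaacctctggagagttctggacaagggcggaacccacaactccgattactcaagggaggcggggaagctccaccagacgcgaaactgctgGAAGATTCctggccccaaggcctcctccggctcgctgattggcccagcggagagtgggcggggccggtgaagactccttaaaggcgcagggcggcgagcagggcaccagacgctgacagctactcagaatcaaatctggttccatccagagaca
Hspe1, chr1:55087898-55088197, plus strand: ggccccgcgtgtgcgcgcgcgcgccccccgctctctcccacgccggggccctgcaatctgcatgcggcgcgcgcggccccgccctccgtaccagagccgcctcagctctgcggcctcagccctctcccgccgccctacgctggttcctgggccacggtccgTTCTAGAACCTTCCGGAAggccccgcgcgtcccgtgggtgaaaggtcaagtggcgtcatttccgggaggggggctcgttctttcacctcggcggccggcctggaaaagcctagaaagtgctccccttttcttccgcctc
Hspa5, chr2:34771840-34772139, plus strand: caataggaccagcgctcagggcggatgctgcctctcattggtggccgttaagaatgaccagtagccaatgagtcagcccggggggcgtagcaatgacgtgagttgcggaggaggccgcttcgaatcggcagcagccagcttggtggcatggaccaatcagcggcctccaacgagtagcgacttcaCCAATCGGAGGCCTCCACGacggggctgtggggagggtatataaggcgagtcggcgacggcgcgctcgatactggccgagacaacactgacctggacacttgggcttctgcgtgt

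The dyads searched were GAANNTTC and TTCNNGAA, each its own reverse complement, so that a match counts for both strands. They occurred in 7.86% and 8.52% of 32851 promoter windows, and 15.1% of windows held either. Hspa1a and Hspa1b each held 1 dyad, at window position 147. Their windows differed at 4 of 300 bases, which were C44T, T47C, T249G and C276T, with the Hspa1a base first and positions counted from the 5′ end of the window. None of these lay in the dyad. Hspe1 held 3 dyads that overlap each other, at positions 162, 167 and 172. Hspd1 is its divergent neighbour, and 1 of its 2 windows shared 285 bases with that of Hspe1 and held the same 3 dyads on the other strand. The other Hspd1 window held no dyad. Hspb1 held 2 dyads and Dnajb1 none in its 2 windows. The endoplasmic reticulum stress element, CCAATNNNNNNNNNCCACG on either strand, occurred in 0.119% of windows and once in that of Hspa5, at position 186. A match describes the letters of the window and does not show that a factor binds there. The lack of a match does not show that none binds, since only these exact letters in these windows were searched.

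Levels and differences are given in log2 units after quantile normalization of all arrays, a scale with 5.71 as the median gene and 10.94 as the 90th percentile. No detection call was used, so differences from levels well below that median are not exact. Several quantities of the arrays moved with the groups. The mean level of the 18S ribosomal RNA controls, a transcript without a poly-A tail, stood at 11.03 to 13.5 in fibroTIPeR cells 1 to 3, at 7.80 and 7.88 in fibroTIPeR 4 and 5, and at 11.2 to 12.1 in fibroControl cells. It stood at 6.94 to 8.24 in cardiomyocytes and 7.05 to 8.06 in fibroblasts. Astrocyte arrays lay between 7.63 and 9.57. Those 8 arrays also formed a set of their own, with medians of 4.28 to 4.56 as deposited, against 5.05 to 5.58 on the other 15, so that cell type and array set cannot be told apart in any level compared across them. Marker lists checked the labels. The mean level of 10 cardiomyocyte markers was 8.81 to 10.03 in cardiomyocytes and 4.66 to 6.79 in all other cells. Of these markers Nppa (4.39 against 5.28) and Tnnt2 (7.99 against 8.46) were lower in cardiomyocytes than in fibroblasts by group mean, and the others higher. The mean of 10 fibroblast markers was 7.30 to 8.05 in fibroTIPeR, 7.56 to 9.86 in fibroControl, 5.02 to 7.22 in cardiomyocyte and 7.12 to 9.27 in fibroblast cells. Among them Dcn (10.17 against 8.85) and Thy1 (8.02 against 6.28) were higher in cardiomyocytes than in fibroblasts, and the others lower. The mean of 8 astrocyte markers did not set the astrocytes apart, with 7.04 to 7.89 in astroTIPeR and 6.57 to 7.08 in astroControl cells, against 7.45 to 8.04 in cardiomyocytes and 6.76 to 7.54 in fibroblasts.

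**Figure D1:**
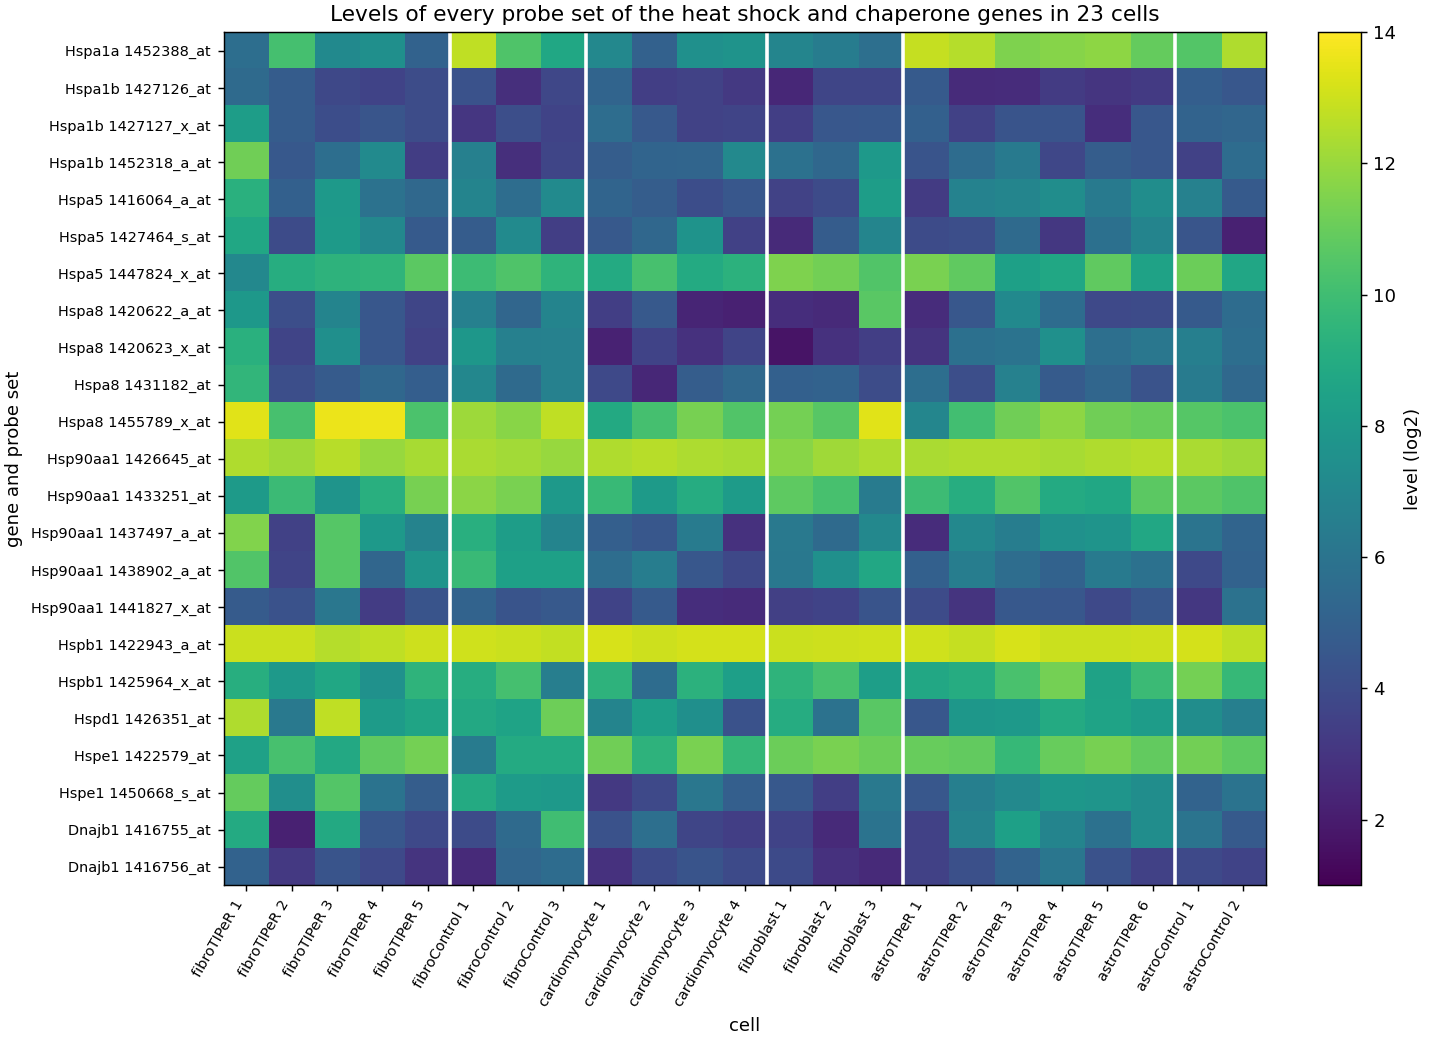
Colour gives the log2 level of each of the 23 probe sets of the chaperone genes (rows) in each of the 23 cells (columns), with white lines between the 6 groups. Hspb1 1422943_a_at and Hsp90aa1 1426645_at are bright in every cell, Hspa1a is bright in the astrocytes and fibroControl cells, and fibroTIPeR 1 and 3 are brighter than fibroTIPeR 2 for Hspd1 and Dnajb1 1416755_at.

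Among the 9 genes tested, each by its probe set of highest mean level, 2 differed in at least 1 of the 6 comparisons made at an adjusted p under 0.05 (limma over all 18193 genes, Benjamini-Hochberg). By these probe sets Hspa1a was higher and Hspe1 was lower in fibroControl cells than in untreated fibroblasts. The other Hspe1 probe set, 1450668_s_at, differed by 3.64 (SE 1.25) between the same groups and did not pass, so the direction of Hspe1 depends on the probe set. Both calls were lost in the values as deposited and with the 18S level as a covariate. In that comparison 1.56% of all genes passed, 131 higher and 152 lower. The other comparisons called none of the 9. In the same test, all genes passed in 0.0055% of cases between fibroTIPeR and fibroControl cells and in 0.055% between fibroTIPeR cells and fibroblasts. The shares were 0.561% between fibroTIPeR cells and cardiomyocytes, 0.225% between cardiomyocytes and fibroblasts, and 0.0495% between astroTIPeR and astroControl cells. At an unadjusted p under 0.05 the members numbered 2, 1, 3, 1 and 0 in those 5 comparisons, against 1204, 1834, 2604, 1768 and 1717 of all genes. The median difference of the 9 genes was 0.11 between fibroControl cells and fibroblasts, where that of all genes was 0.029. It was 0.063 between fibroTIPeR and fibroControl cells, where that of all genes was -0.020, and 0.24 between fibroTIPeR cells and fibroblasts, where that of all genes was 0.0040. Between astroTIPeR and astroControl cells it was 0.18, with 0.079 for all genes. Between cardiomyocytes and fibroblasts it was -0.76, with 0.087 for all genes, and between fibroTIPeR cells and cardiomyocytes 0.29, with -0.14 for all genes. Comparisons that use the same group share its cells and are not independent.

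Hspa1a (chr17:34969359-34972156) encodes an inducible cytosolic HSP70 and was read by 1 probe set, 1452388_at. Its level was 5.67, 10.16, 7.19, 7.49 and 5.07 in fibroTIPeR 1 to 5. It was 12.73, 10.41 and 8.77 in fibroControl cells, against 6.90, 6.44 and 5.74 in fibroblasts. All 3 fibroControl cells thus lay above all fibroblasts, while of the fibroTIPeR cells number 2 stood at a fibroControl level and the others within or near the fibroblast range. Cardiomyocytes stood at 7.08, 5.03, 7.51 and 7.69, which overlapped the fibroblasts. FibroControl cells exceeded fibroblasts by 4.28 (SE 1.08, 95% interval 2.07 to 6.49, limma adjusted p = 0.0412). The difference of fibroTIPeR from fibroControl cells was -3.52 (SE 0.96), which did not pass over all genes (adjusted p = 0.337), and these groups overlapped. With fibroTIPeR 4 and 5 alone, the cells with low 18S, that difference was -4.36 and passed (limma adjusted p = 0.0401). In that subset 161 of 18193 genes passed, against 1 with all fibroTIPeR cells. Its 18S levels of 7.80 and 7.88 lay below the 11.2 to 12.1 of fibroControl cells, so the donor RNA and 18S cannot be told apart there. FibroTIPeR cells differed from fibroblasts by 0.76 (SE 0.96, adjusted p = 0.847).

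The call for Hspa1a in fibroControl cells rested on small groups. It was lost without fibroControl 1 (3.23, adjusted p = 0.186), without fibroControl 2 (4.39, adjusted p = 0.0848) and without fibroblast 1, 2 or 3 (3.97 to 4.55, adjusted p = 0.0662 to 0.114), with the direction kept each time. The 18S level of every fibroControl cell was above that of every fibroblast, and with the 18S level as a covariate the difference was 4.15 (adjusted p = 0.441). Across the 15 fibroblast and cardiomyocyte arrays Hspa1a followed 18S with r = 0.473, over cells that share group and array set. FibroTIPeR 1, 2 and 3, with 18S at 12.4, 11.03 and 13.5, had Hspa1a at 5.67, 10.16 and 7.19.

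The highest levels of Hspa1a as a group were in astrocytes. In astroTIPeR cells they ran from 10.91 to 12.88 with a median of 11.71, against 10.54 and 12.44 in astroControl cells. The astroControl cells spanned most of the astroTIPeR range, and the difference of 0.38 (SE 1.08, 95% interval -1.83 to 2.59, adjusted p = 0.967) did not pass. In the values as deposited the same 3 groups held the highest levels, with 10.91 to 13.09 in astroTIPeR, 10.47 to 12.65 in astroControl, 8.80 to 12.60 in fibroControl and 6.04 to 7.27 in fibroblast cells. AstroTIPeR and astroControl cells overlapped, the fibroControl range reached into both, and fibroTIPeR, cardiomyocyte and fibroblast cells overlapped each other. The difference of the transfer effect between fibroblasts and astrocytes was -3.90 for Hspa1a (SE 1.44, adjusted p = 0.523). It passed for none of 18193 genes, with 1392 genes and 2 of the members, Hspa1a and Hspe1, at an unadjusted p under 0.05. The fibroblast side was set against fibroblast RNA and the astrocyte side against mock transfection, so this contrast also compares those controls.

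The twin gene Hspa1b (chr17:34956429-34959238), whose promoter window is nearly that of Hspa1a, showed another pattern. Its 3 probe sets ranged from 2.45 to 5.51 (1427126_at), 2.72 to 8.26 (1427127_x_at) and 2.76 to 11.18 (1452318_a_at) over all cells. The highest value of each was in fibroTIPeR 1. For 1452318_a_at fibroTIPeR cells ranged from 3.37 to 11.18, fibroControl cells from 2.76 to 6.64 and fibroblasts from 5.35 to 7.96, so the groups overlapped. FibroControl cells differed from fibroblasts by -2.01 by this probe set (SE 1.30, adjusted p = 0.443), by -0.56 by 1427127_x_at (SE 0.82) and by 0.30 by 1427126_at (SE 0.65). None passed, and the sign depended on the probe set. Across the 15 arrays the correlations of Hspa1a with the Hspa1b probe sets were -0.0131, -0.398 and -0.245. The coding sequences of the pair are close to identical, so a probe set of one may also read the other, and the assignment to either gene is uncertain.

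**Figure D2:**
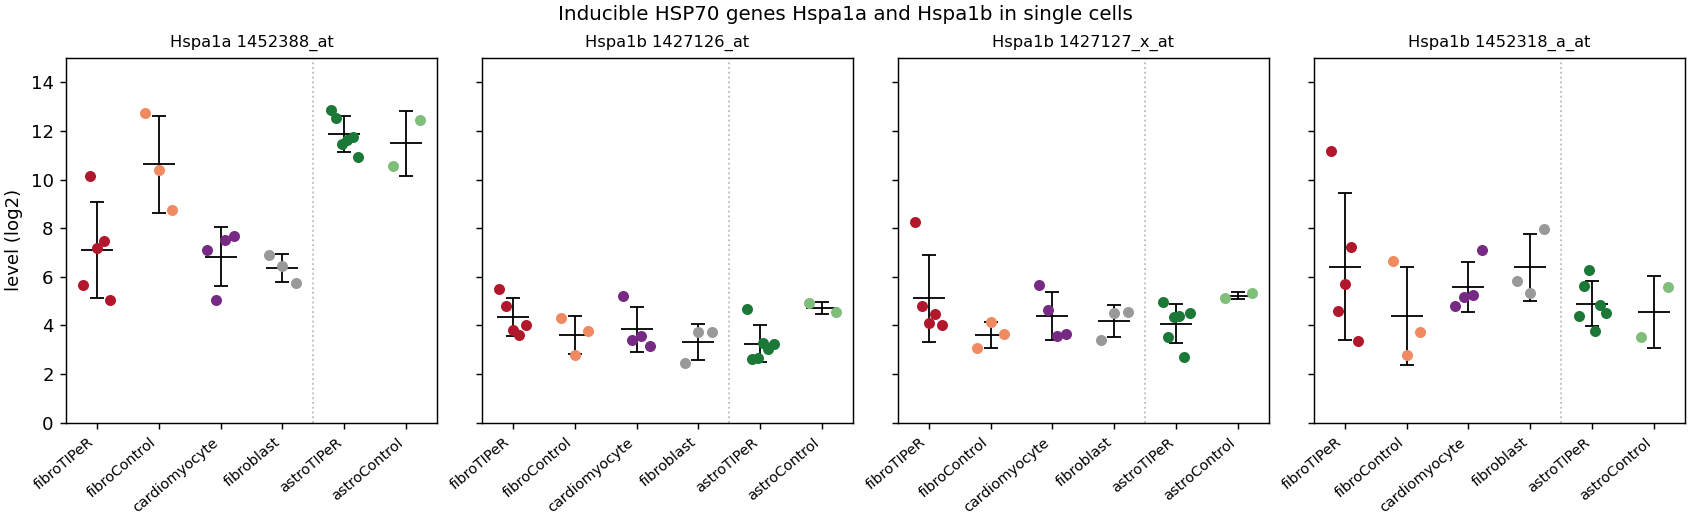
Each point is 1 cell and gives the log2 level of a probe set of Hspa1a or Hspa1b by group, with the mean and SD of the group as bars and a dotted line between the array sets. Hspa1a is high in all 3 fibroControl cells, 1 fibroTIPeR cell and all 8 astrocytes, and the Hspa1b probe sets lie low in most of the same cells.

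Dnajb1, the HSP40 cochaperone that stimulates the ATPase of HSP70, varied strongly within groups. By 1416755_at it stood at 8.93, 2.18, 8.88, 4.50 and 3.85 in fibroTIPeR 1 to 5. It stood at 3.95, 5.49 and 10.01 in fibroControl cells, at 4.28, 5.74, 3.74 and 3.42 in cardiomyocytes, and at 3.61, 2.54 and 5.96 in fibroblasts. FibroTIPeR 1 and 3 and fibroControl 3 were high and the groups overlapped. FibroControl cells differed from fibroblasts by 2.45 (SE 1.52, adjusted p = 0.418) and fibroTIPeR cells from fibroblasts by 1.63 (SE 1.36, adjusted p = 0.747). The 3 cells with the highest Dnajb1, fibroControl 3 and fibroTIPeR 1 and 3, had Hspa1a at 8.77, 5.67 and 7.19, and fibroControl 1, with the highest Hspa1a outside the astrocytes, had Dnajb1 at 3.95. In astroTIPeR cells Dnajb1 ran from 3.54 to 8.37 with a median of 6.85, against 5.98 and 4.66 in astroControl cells (difference 1.14, SE 1.52, adjusted p = 0.900). The second probe set, 1416756_at, lay between 2.54 and 6.12 in all cells.

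Hspa8, the constitutive cytosolic HSP70, had 4 probe sets. The brightest, 1455789_x_at, stood at 13.39, 10.22, 13.60, 13.68 and 10.31 in fibroTIPeR cells and at 12.09, 11.70 and 12.75 in fibroControl cells. Cardiomyocytes stood at 8.88, 10.15, 11.32 and 10.47 and fibroblasts at 11.30, 10.63 and 13.41. FibroTIPeR 1, 3 and 4 were high and fibroTIPeR 2 and 5 lower. Over the 15 arrays this probe set correlated with 18S at 0.513. The difference of fibroTIPeR cells from cardiomyocytes was 2.04 (SE 0.82, adjusted p = 0.273), that from fibroblasts 0.46 (SE 0.89, adjusted p = 0.913), and that of fibroControl cells from fibroblasts 0.39 (SE 0.996, adjusted p = 0.879). In astroTIPeR cells the level ran from 6.95 to 11.79 with a median of 11.06, against 10.60 and 10.34 in astroControl cells.

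Another Hspa8 probe set, 1420623_x_at, was higher in fibroControl cells than in fibroblasts. It stood at 9.24, 3.67, 7.47, 4.54 and 3.54 in fibroTIPeR cells and at 7.88, 6.68 and 6.72 in fibroControl cells, against 1.69, 2.84 and 3.42 in fibroblasts. All fibroControl cells lay above all fibroblasts, and the fibroTIPeR cells spread over both ranges. In the fit of every probe set the difference between fibroControl cells and fibroblasts was 4.45 (SE 1.11, limma adjusted p = 0.0440), from fibroblast levels well below the median of all genes. Its correlation with 18S over the 15 arrays was 0.901, and the part of 18S in the difference was not tested for this probe set. The other 3 Hspa8 probe sets gave 0.96, 1.71 and 0.39 in the same comparison, of which none passed.

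Hspa5, the HSP70 of the endoplasmic reticulum, was read by 1447824_x_at at 7.05, 9.09, 9.42, 9.51 and 10.75 in fibroTIPeR cells and 9.90, 10.42 and 9.44 in fibroControl cells. Cardiomyocytes stood at 8.96, 10.21, 8.95 and 9.38 and fibroblasts at 11.47, 11.21 and 10.49. Fibroblasts were the highest of these groups, although fibroTIPeR 5 lay within their range. No difference passed: -1.89 for fibroTIPeR cells against fibroblasts (SE 0.78, adjusted p = 0.410), -1.14 for fibroControl cells (SE 0.87, adjusted p = 0.523) and -1.68 for cardiomyocytes (SE 0.82, adjusted p = 0.512). The other Hspa5 probe sets differed the other way from fibroblasts in fibroTIPeR cells, by 1.45 (1416064_a_at, SE 1.06) and 1.77 (1427464_s_at, SE 1.14), and did not pass either. Across the 15 arrays 1447824_x_at correlated with them at -0.504 and -0.463, so the direction of Hspa5 depends on the probe set. Astrocytes ranged from 8.40 to 11.41 with a median of 9.80 in astroTIPeR, against 11.10 and 8.68 in astroControl cells.

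Hsp90aa1, the inducible cytosolic HSP90, had 5 probe sets, and the brightest hardly varied. By 1426645_at fibroTIPeR cells stood at 12.45, 12.16, 12.61, 11.99 and 12.32, fibroControl cells at 12.34, 12.19 and 11.99, cardiomyocytes at 12.45, 12.61, 12.38 and 12.28, and fibroblasts at 11.67, 12.13 and 12.38. AstroTIPeR cells lay between 12.32 and 12.54 with a median of 12.44, against 12.35 and 12.15 in astroControl cells. The SD over all 23 cells was 0.218, and 0.855% of probe sets had a smaller one. The differences between groups were between -0.12 (fibroTIPeR against cardiomyocyte) and 0.37 (cardiomyocyte against fibroblast, SE 0.18, adjusted p = 0.525). The probe set 1437497_a_at varied far more, with 11.52, 3.51, 10.56, 8.03 and 6.83 in fibroTIPeR cells, 9.20, 8.22 and 6.88 in fibroControl cells, and 6.24, 5.49 and 7.09 in fibroblasts. FibroTIPeR 1 and 3 were the highest of all 23 cells for it, and fibroControl cells differed from fibroblasts by 1.83 (SE 1.496, adjusted p = 0.577).

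Hspb1, a small heat shock protein that holds unfolded proteins and binds actin, was flat by its brightest probe set. Over all 23 cells 1422943_a_at ranged from 12.56 to 13.21, with an SD of 0.156 that 0.149% of probe sets undercut. The largest of its differences over the 6 comparisons was -0.27 between fibroTIPeR cells and cardiomyocytes (SE 0.11, adjusted p = 0.294). The other probe set, 1425964_x_at, ranged from 5.58 to 11.27, and its groups overlapped in each of the fibroblast comparisons.

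Hspe1 (chr1:55088148-55091317) encodes the mitochondrial cochaperonin HSP10 and Hspd1 (chr1:55077833-55088243) its partner chaperonin HSP60, in which mitochondrial proteins fold. By 1422579_at Hspe1 stood at 8.45, 10.23, 8.84, 10.83 and 11.30 in fibroTIPeR cells. It stood at 6.41, 8.94 and 8.95 in fibroControl cells, against 11.07, 11.38 and 11.07 in fibroblasts, with no overlap. Cardiomyocytes stood at 11.18, 9.40, 11.39 and 9.68, above all fibroControl cells. FibroControl cells were lower than fibroblasts (difference -3.07, SE 0.74, 95% interval -4.58 to -1.56, limma adjusted p = 0.0337). FibroTIPeR cells differed by 1.83 from fibroControl cells (SE 0.66, adjusted p = 0.545) and by -1.25 from fibroblasts (SE 0.66, adjusted p = 0.542). With fibroTIPeR 4 and 5 alone the difference from fibroControl cells was 2.96 and passed (limma adjusted p = 0.0370). In that subset 161 of 18193 genes passed, against 1 with all fibroTIPeR cells. Its 18S levels of 7.80 and 7.88 lay below the 11.2 to 12.1 of fibroControl cells, so the donor RNA and 18S cannot be told apart there. By 1422579_at astroTIPeR cells ran from 9.69 to 11.31 with a median of 10.95, against 11.23 and 10.76 in astroControl cells (difference -0.20, SE 0.74, adjusted p = 0.977).

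The second Hspe1 probe set, 1450668_s_at, ran the opposite way. It stood at 10.91, 7.43, 10.53, 5.94 and 4.81 in fibroTIPeR cells and at 8.97, 8.16 and 8.02 in fibroControl cells, against 3.13, 3.85, 6.15 and 4.91 in cardiomyocytes and 4.59, 3.39 and 6.25 in fibroblasts. All fibroControl cells lay above all cardiomyocytes and fibroblasts. The differences were 3.64 for fibroControl cells against fibroblasts (SE 1.25, adjusted p = 0.128), 3.18 for fibroTIPeR cells against fibroblasts (SE 1.12, adjusted p = 0.299) and 3.41 for fibroTIPeR cells against cardiomyocytes (SE 1.03, adjusted p = 0.144). None passed. Across the 15 arrays the 2 probe sets correlated at -0.705, and across the 8 astrocyte arrays at -0.152. With the mean of both in place of the brighter one, Hspe1 differed by 0.28 between fibroControl cells and fibroblasts (adjusted p = 0.848).

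Both Hspe1 probe sets moved with the 18S level. Over the 15 arrays, which share groups, r was -0.807 for 1422579_at and 0.919 for 1450668_s_at. With 18S as a covariate the difference of 1422579_at between fibroControl cells and fibroblasts was -1.04 (adjusted p = 0.706). The call was also lost without fibroControl 1 (-2.23, adjusted p = 0.149) and without fibroblast 1, 2 or 3 (-3.13 to -2.97, adjusted p = 0.0692 to 0.118), with the direction kept. It held without fibroControl 2 or 3.

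**Figure D3:**
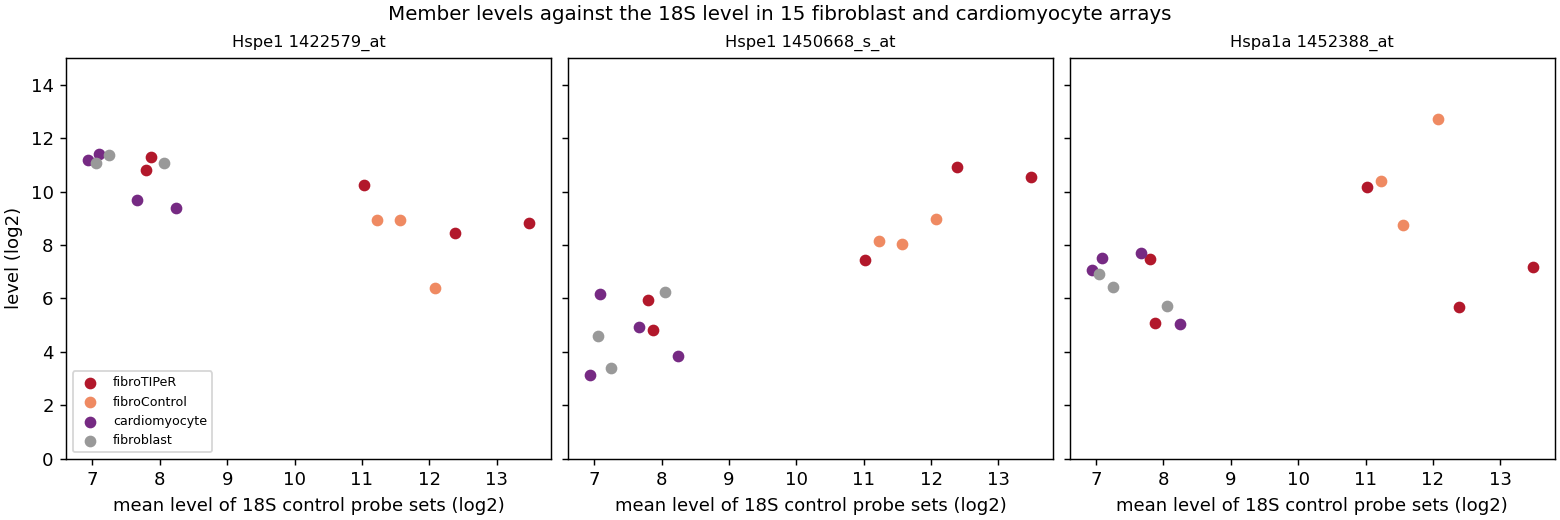
Each point is 1 of the 15 fibroblast and cardiomyocyte arrays, with the mean log2 level of the 18S control probe sets on the horizontal axis and the log2 level of a chaperone probe set on the vertical axis. Hspe1 1450668_s_at is higher and Hspe1 1422579_at mostly lower where 18S is above 11, while Hspa1a spans 5.67 to 12.73 on those 6 arrays. The exception for 1422579_at is fibroTIPeR 2 at 10.23, above cardiomyocytes 2 and 4 at 9.40 and 9.68.

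Hspd1, by its single probe set 1426351_at, stood at 12.47, 6.25, 12.73, 8.12 and 8.58 in fibroTIPeR cells and 8.86, 8.56 and 11.12 in fibroControl cells. Cardiomyocytes stood at 6.89, 8.33, 7.50 and 4.29, and fibroblasts at 9.07, 5.89 and 10.69. FibroTIPeR 1 and 3 were again the highest, and the groups overlapped. FibroTIPeR cells differed from cardiomyocytes by 2.88 (SE 1.22, adjusted p = 0.294) and from fibroblasts by 1.08 (SE 1.33, adjusted p = 0.839). FibroControl cells differed from fibroblasts by 0.96 (SE 1.48, adjusted p = 0.784). Its correlation over the 15 arrays was 0.694 with Hspe1 1450668_s_at and -0.381 with 1422579_at, the probe set used for Hspe1. In astroTIPeR cells it ran from 4.53 to 8.92 with a median of 8.08, against 7.36 and 6.63 in astroControl cells.

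**Figure D4:**
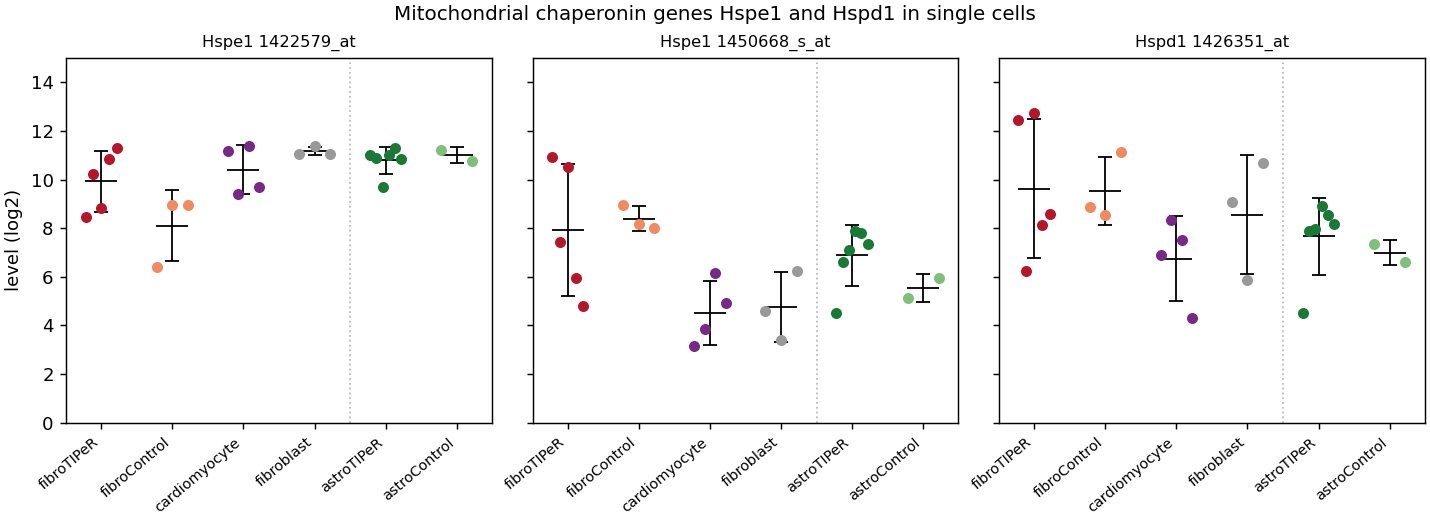
Each point is 1 cell and gives the log2 level of the Hspe1 and Hspd1 probe sets by group, with the mean and SD of the group as bars and a dotted line between the array sets. FibroControl cells lie below fibroblasts for Hspe1 1422579_at and above them for Hspe1 1450668_s_at, and fibroTIPeR 1 and 3 stand out for Hspd1.

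Taking every member probe set by itself, 3 of 23 passed between fibroControl cells and fibroblasts in the fit of all 45037 probe sets, Hspa1a and Hspa8 1420623_x_at higher and Hspe1 1422579_at lower, where 1.32% of all probe sets passed. None of the 23 passed elsewhere in this limma fit. All probe sets passed in 0.00222% between fibroTIPeR and fibroControl cells, in 0.00444% between fibroTIPeR cells and fibroblasts and in 0.56% between fibroTIPeR cells and cardiomyocytes. The share was 0.127% both between cardiomyocytes and fibroblasts and between astroTIPeR and astroControl cells. At an unadjusted p under 0.05 the member probe sets numbered 3, 3, 8, 1 and 1 in those 5 comparisons, against 6.4%, 10.5%, 13%, 9.23% and 9.81% of all probe sets. The difference was above 0 for 19 of 23 probe sets in fibroTIPeR cells against fibroblasts (median 0.76), for 17 in fibroControl cells against fibroblasts (median 0.96) and for 19 in fibroTIPeR cells against cardiomyocytes (median 1.15). It was above 0 for 9 in fibroTIPeR against fibroControl cells (median -0.083), for 12 in astroTIPeR against astroControl cells (median 0.020) and for 9 in cardiomyocytes against fibroblasts (median -0.40). Medians over all probe sets were between -0.10 and 0.083. The share of all probe sets above 0 was not counted. Over the 15 fibroblast and cardiomyocyte arrays the member probe sets correlated with 18S at -0.807 to 0.919, most of them above 0. The 18S level was higher in fibroControl cells and fibroTIPeR 1 to 3 than in untreated cells, and its part in these counts was not tested. Probe sets of a gene share transcripts and the first 3 of these comparisons share cells, so these counts describe these arrays.

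**Figure D5:**
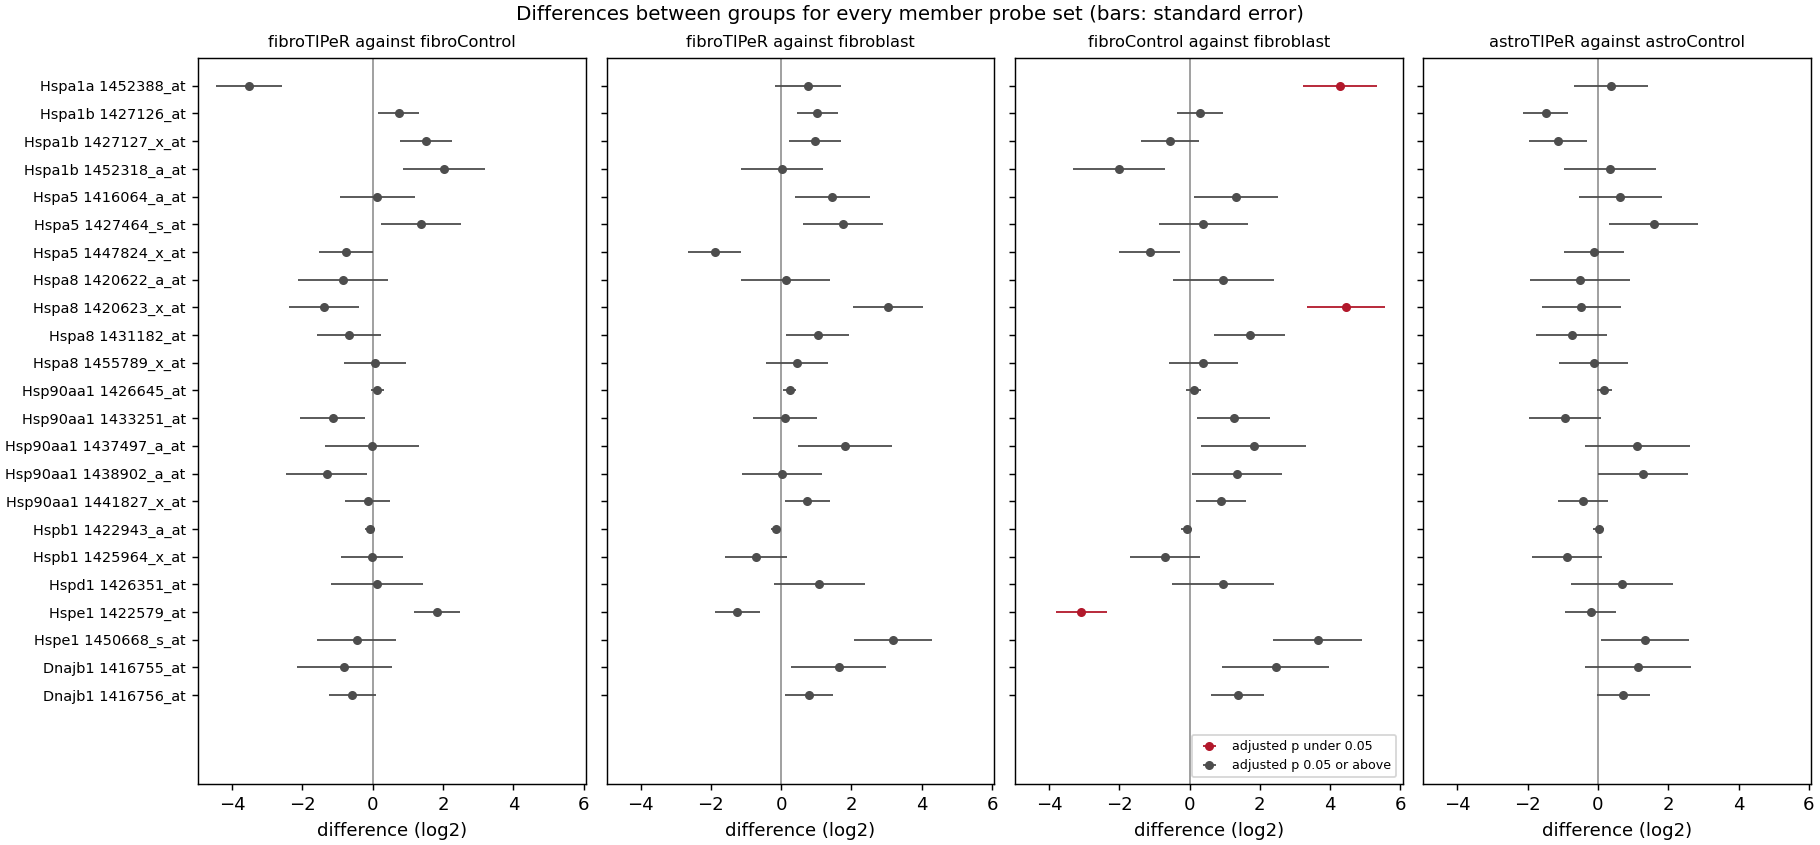
Each point is the log2 difference between 2 groups for 1 member probe set, with its standard error as the bar and red for an adjusted p under 0.05, in 4 comparisons. Red appears between fibroControl cells and fibroblasts for Hspa1a, Hspa8 1420623_x_at and Hspe1 1422579_at.

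Groups without any overlap of cells were found for 3 of the 9 genes between fibroControl cells and fibroblasts, Hspa1a, Hspa5 and Hspe1, where 23.4% of all genes had none. Hspa5 alone did not overlap between cardiomyocytes and fibroblasts, where the share of all genes was 12.6%. No member was free of overlap between fibroTIPeR and fibroControl cells, between fibroTIPeR cells and fibroblasts, between fibroTIPeR cells and cardiomyocytes, or between astroTIPeR and astroControl cells. The shares of all genes there were 3%, 5.01%, 3.9% and 11.8%.

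The genes most like Hspa1a over the 15 fibroblast and cardiomyocyte arrays, by Pearson correlation, were Dcdc2b (0.937), Spn (0.914) and Adamts20 (0.905). Those most like Hspe1 1422579_at were Cul4b (0.940), Gnaz (0.924) and Nt5dc3 (0.918). They were the top of 18193 genes and the arrays share their groups, so the values are descriptions.

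Other genes of the stress pathways were read from 8 lists, of which 122 genes were tested. Between fibroControl cells and fibroblasts 3 of them passed, where 1.56% of all genes passed. With 18S as a covariate 0 of all genes passed in this comparison, so these 3 calls were lost as well. Dnajc21, a J-domain protein of ribosome assembly, stood at 5.92 ± 0.70 in fibroControl cells and 12.46 ± 2.05 in fibroblasts (SD, n = 3 each), a difference of -6.54 (SE 1.12, limma adjusted p = 0.00912). Unc45a, an HSP90 cochaperone for myosin, stood at 8.16 ± 0.27 in fibroControl cells and 12.47 ± 2.08 in fibroblasts, a difference of -4.31 (SE 1.09, adjusted p = 0.0427). P4hb, a protein disulfide isomerase of the endoplasmic reticulum, stood at 8.92 ± 0.15 in fibroControl cells and 2.85 ± 1.05 in fibroblasts, a difference of 6.06 (SE 1.31, adjusted p = 0.0201). So 1 of 17 HSP40 genes and 1 of 16 cochaperones of HSP70 and HSP90 were lower, and 1 of 24 endoplasmic reticulum genes was higher. None passed of 13 genes around HSF1 and the HSP70 and HSP110 system, 8 small heat shock proteins, 14 chaperonin and prefoldin subunits, 11 mitochondrial genes or 19 oxidative and immediate early genes.

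In the other 5 comparisons none of the 122 genes passed with limma. The genes that follow had the smallest p of their list in a comparison and did not pass. Heat shock factor 2 (Hsf2) differed by -3.01 between fibroControl cells and fibroblasts (SE 0.86, adjusted p = 0.0679), and the mitochondrial protease subunit Clpx by -4.19 (SE 1.11, adjusted p = 0.0514). The immediate early gene Fos differed by 3.37 there (SE 1.05, adjusted p = 0.0881), with 8.22 ± 3.66 in fibroControl cells and 4.85 ± 0.39 in fibroblasts. In fibroTIPeR cells against cardiomyocytes, Dnajc10, a reductase of the endoplasmic reticulum, differed by 4.25 (SE 1.04, adjusted p = 0.0558) and the chaperonin subunit Cct4 by 3.89 (SE 1.002, adjusted p = 0.0737). In astroTIPeR against astroControl cells, the metallothionein Mt2 differed by 4.38 (SE 1.07, adjusted p = 0.107), with 10.2 ± 1.33 in 6 cells and 5.83 ± 0.22 in 2. The cochaperone Stip1, which joins HSP70 to HSP90, differed there by 3.23 (SE 0.92, adjusted p = 0.172). Between fibroTIPeR cells and fibroblasts the HSP110 gene Hsph1 differed by 2.11 (SE 0.77, adjusted p = 0.363) and the chaperonin subunit Cct7 by 3.36 (SE 1.10, adjusted p = 0.297). Between cardiomyocytes and fibroblasts Cryab, the small heat shock protein of muscle, differed by 2.68 (SE 1.46, adjusted p = 0.556).

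Medians of the lists are given beside that of all genes. Between fibroControl cells and fibroblasts the medians were 0.00081 for the HSF1 list, 0.15 for HSP40 genes, 0.84 for cochaperones, -0.078 for small heat shock proteins, 0.023 for chaperonin subunits, 0.89 for mitochondrial genes, 0.66 for endoplasmic reticulum genes and 0.44 for oxidative and immediate early genes, beside 0.029 for all genes. The sign counts that follow are a selection of those with mostly 1 sign, from all lists and comparisons. The share of all genes with the same sign was not counted, and the median of all genes leaned the same way. Small heat shock proteins were below 0 for 8 of 8 genes in fibroTIPeR cells against cardiomyocytes, with a median of -0.58 and -0.14 for all genes, and none passed. The HSP40 genes were above 0 for 13 of 17 in astroTIPeR against astroControl cells, with a median of 0.73 and 0.079 for all genes, and none passed. The cochaperones of HSP70 and HSP90 were above 0 for 13 of 16 there, with a median of 0.46, and none passed. The Gapdh controls, read at the 3' end minus the 5' end as a sign of RNA length, gave 2.94 to 5.05 in astroTIPeR and 1.51 to 2.63 in astroControl cells without overlap, and its part in these values was not tested.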

How the data were processed

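Expression was measured in 23 single cells on Affymetrix mouse arrays. The authors deposited 45101 probe set values, taken as log2 from their range. Per the labels' protocols, cells were cultured, transfected with a lipid reagent and collected by micropipette, and their RNA was amplified; how the signals were summarized and normalized was not given in the sources used here. Arrays correlated at 0.541 to 0.920 and no pair was identical. Column medians differed by 1.29, above the limit of 1, so all columns were quantile normalized.

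The tests left out 64 control probe sets. The annotation gave 1 symbol for 34945 of the rest, several for 932 and none for 9160. For 9010 genes with more than 1 probe set the one of highest mean level was used, which left 18193 genes; a second fit used all 45037. Groups came from the sample titles. limma 3.58.1 in R 4.3.3 fitted a mean for each of 6 groups over all 23 cells, with eBayes and a trend, two-sided tests, Benjamini-Hochberg adjustment and a threshold of 0.05. The procedure was tested on simulated data.

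The members and the gene lists were chosen with earlier results of these data known. Members were given cell by cell if they passed a comparison or had 1 of the 2 smallest p-values in it, otherwise by range. Of each list up to 3 genes past the threshold, or the one with the smallest p, could be named, and the text names a selection of these. For members that passed, the 3 best-correlated genes were named. Hsf1, Ubb, Ptges3, Ppid, Aha1, Pdcd5, Phb1 and Prdx1 of the lists had no listed probe set and were not tested. Alternatives were other normalizations, probe set rules, moderation, array weights, 18S as a covariate, subsets of fibroTIPeR cells, a term for the replicate number, and omission of each cell in turn. Whether replicate numbers pair cells was checked by the correlation of deviations from group means between cells of different groups. Same-numbered cells gave -0.341 to 0.285 (44 pairs, median 0.0041), and differently numbered cells -0.383 to 0.453 (171 pairs, median -0.0031). The main fit therefore used no pairing. With so few cells per group this check cannot exclude that some numbers share a culture or day. Figures used matplotlib 3.10.9 in Python 3.11.15.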

Additional observations from a re-analysis of the deposited data

Results flagged for a closer look

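In groups of 4 to 10 cells, a cell stood far from the rest of its group for 8 of 69 combinations of a member probe set and a group, where chance gives about 1 in 20 (5%). The combinations are not independent, since probe sets move together, as Hspa8 1455789_x_at and Hspd1 did over the 8 astrocyte arrays (r = 0.945). The count is therefore no test of an excess over that share. AstroTIPeR 1 accounted for 5 of the 8 combinations. It was low for Hspa5 1416064_a_at (3.26, others 6.32 to 7.38), Hspa8 1455789_x_at (6.95, others 10.08 to 11.79), Hsp90aa1 1437497_a_at (2.63, others 6.51 to 8.82) and Hspd1 1426351_at (4.53, others 7.89 to 8.92). It was high for Hspa1b 1427126_at (4.69, others 2.62 to 3.26). Its 18S level of 7.63 and its B2 repeat level of 6.41 were the lowest of the 6 astroTIPeR cells, and their part in these values was not tested.

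FibroTIPeR 1 was high for Hspa1b 1427127_x_at (8.26, others at most 4.79) and Hspa8 1431182_at (9.56, others 4.12 to 5.34). Its array held the fewest distinct values, 1742, of all 23. AstroTIPeR 3 was low for Hspe1 1422579_at (9.69, others 10.86 to 11.31).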

How the results depend on the processing

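Of the 9 members, 2 passed between fibroControl cells and fibroblasts (limma). None passed there in the values as deposited (0), with median centring (0), without a trend (0), with the compared groups alone (0), with 18S as a covariate (0) or with the replicate number as a term, the replicate block (0; Hspa1a 4.28, adjusted p = 0.0597; Hspe1 -3.07, adjusted p = 0.0525). With quantile normalization within each array set 1 passed, and with probe sets of a gene averaged 1 passed, where Hspe1 had the opposite sign (0.284, adjusted p = 0.848). Leaving out 1 cell gave 0 to 2 members. With fibroTIPeR 4 and 5 alone 2 members passed between fibroTIPeR and fibroControl cells, where otherwise 0 did. In that subset 161 of 18193 genes passed. With array weights 1 member passed between cardiomyocytes and fibroblasts (Hspa5, -1.97, limma adjusted p = 0.0453), where otherwise 0 did. There 1130 of 18193 genes passed with array weights, against 41 in the main fit. Where a direction or call changed, the cause was not tested. Of the other values of single members under an alternative, 1224 kept direction and side of the threshold and 122 that never passed changed sign. The block changed no other call of a member. Counts of all genes moved more: 283 between fibroControl cells and fibroblasts became 0 with 18S and 1890 with array weights, and 42 to 144 with 1 cell left out. The 10 between fibroTIPeR cells and fibroblasts became 0 to 610, the 1 between fibroTIPeR and fibroControl cells 0 to 161, the 102 between fibroTIPeR cells and cardiomyocytes 9 to 1056, the 41 between cardiomyocytes and fibroblasts 2 to 1130, and the 9 between astroTIPeR and astroControl cells 1 to 87, or 543 without astroControl 1.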
